A study of Mus musculus with 6 samples.

Results

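Collagen chains are the protein subunits of the triple helices that make up most of the dermal matrix. The rows examined here are the genes whose symbol reads Col, a number, a and a number, without Col17a1 and Col7a1, which build the anchoring complex under the epidermis. This rule took 42 of the 57010 genes in the deposited table, each with 1 row, and did not use any measured value. The RNA came from skin taken at the close of a study of diabetic ulcers, from 6 mice of wild-type genotype, each sequenced as 1 library. A gel put on the skin carried CST in 3 mice. The series title names CST as cortistatin, a neuropeptide of the somatostatin family. The gel of the other 3 mice carried Yoda1, a synthetic opener of the mechanosensitive channel Piezo1. Skin with no drug was not analysed here, and the strain, the age, the dose and how diabetes was induced were all not given in the sources used here.

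In background terms, collagen chains assemble in threes inside the cell, are hydroxylated and folded in the endoplasmic reticulum, and are trimmed and cross-linked outside it. Fibrillar chains form the rope-like fibres of the dermis, type IV chains form the sheet of basement membranes, FACIT chains sit on the surface of fibrils, and type VI chains form beaded filaments. Fibroblasts are the main source of the fibrillar chains in skin, and type III collagen is known as an early matrix component of healing wounds.

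Values are FPKM, fragments per kilobase of gene per 1e6 fragments, as the authors deposited them. The depth behind them, recovered from the steps of the values, was 24115479, 27707128 and 29042514 reads for CST mice 1 to 3, against 29620526, 29308343 and 23791352 reads for Yoda1 mice 1 to 3. The 42 chains together held 161632, 356558 and 338117 reads for CST mice, against 715222, 619190 and 167968 reads for Yoda1 mice. CST mouse 1 and Yoda1 mouse 3 stood apart from the rest. Mitochondrially encoded transcripts took 6.72% and 7.61% of their FPKM sums, against 3.25% to 3.81% in the other libraries. The labels also tag the samples as keratinocytes. All 12 fibroblast, all 8 endothelial and all 10 skeletal muscle marker genes reached a mean of at least 1 FPKM, so the libraries held other cell types than keratinocytes. In such bulk RNA, fewer cells of a type and less RNA per cell cannot be told apart.

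Most collagen chains measured lower in CST skin than in Yoda1 skin, and no chain passed the test. Limma (two-sided, on log2(FPKM + 1), Benjamini-Hochberg adjustment over all genes, threshold 0.05) was run on 14588 genes whose mean reached 1 FPKM, among them 25 of the 42 chains. It called 0 of the 25 chains, against 0.00% of all genes tested. The log2 change, CST minus Yoda1, was below 0 in 21 of the 25 chains, against 52.8% of all tested genes. Its median was -0.52 over the 25 chains and -0.01 over all tested genes. At an unadjusted p under 0.05 there was 1 chain, Col6a3, lower in CST, against 0.788% of all tested genes that were lower in CST at that level. Limma-voom on the recovered reads also called 0 of the 25 chains. A fit that weights the libraries by their scatter called 9 of the 25 chains, against 9.24% of all tested genes, but the estimate of its weights stopped before it converged. Of the 9, 8 were lower in CST (4.75% of all tested genes), which were Col1a2, Col3a1, Col5a1, Col5a2, Col6a1, Col6a2, Col6a3 and Col16a1, and Col13a1 was higher (4.49%). Leaving out CST mouse 2 or Yoda1 mouse 2 let limma call 0.0548% and 0.932% of all tested genes, with 0 of the 25 chains among them in either fit.

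The 42 chains summed to 3258, 6184 and 5622 FPKM in CST mice 1 to 3, against 11565, 10209 and 3355 FPKM in Yoda1 mice 1 to 3. Yoda1 mice 1 and 2 were high, CST mice 2 and 3 lay between, and CST mouse 1 and Yoda1 mouse 3 were low and close to each other. The groups overlapped, since Yoda1 mouse 3 lay below CST mice 2 and 3. In 14 of the 25 tested chains CST mouse 1 and Yoda1 mouse 3 were the lowest pair of libraries (56.0%), against 28.0% of all tested genes. In 14 of the 25 chains Yoda1 mice 1 and 2 were the highest pair (56.0%, against 15.1% of all tested genes). Summed fibroblast markers, a list with no collagen gene in it, measured 1217, 1518 and 1065 FPKM in CST mice 1 to 3, against 2408, 2289 and 1114 FPKM in Yoda1 mice 1 to 3. Most of that sum came from Dcn, Lum and Dpt (734, 135 and 101 FPKM in CST mouse 1). Dcn, Lum and Dpt are also on the list of collagen-binding matrix proteins below. Thy1 of the same markers lay above Lum and Dpt in every library except CST mouse 1. It measured 99.2, 341 and 305 FPKM in CST mice 1 to 3, against 485, 576 and 157 FPKM in Yoda1 mice 1 to 3. Per unit of those markers the collagen sum was 2.68, 4.07 and 5.28 in CST skin and 4.80, 4.46 and 3.01 in Yoda1 skin, so CST mouse 1 and Yoda1 mouse 3 were low on that scale too, and the groups overlapped. Other cell type markers moved between the libraries as well. Neutrophil markers summed to 11018.5, 1760 and 1715 FPKM in CST skin, against 1547, 682 and 4097 FPKM in Yoda1 skin, highest in CST mouse 1 and Yoda1 mouse 3. S100a9 and S100a8 made up most of both sums (7553 and 3066 FPKM in CST mouse 1, 2539 and 1486.5 in Yoda1 mouse 3). In Cxcr2, Csf3r, Retnlg, Ly6g and Mmp8 of the same list, CST mouse 2 lay above Yoda1 mouse 3, while in Ngp it lay below. All 6 adipocyte markers had a negative log2 change (median -0.69), with sums of 969, 809 and 861 FPKM in CST skin, against 2448, 948 and 1168 FPKM in Yoda1 skin. All 10 skeletal muscle markers were higher in CST skin with no overlap between the groups (median log2 change 4.01), where 4.52% of all tested genes were. Limma called 0 of the 10. Their sum in Yoda1 mouse 2 (4777 FPKM) was nearer to CST mouse 2 (6654 FPKM) than to Yoda1 mice 1 and 3 (108 and 569 FPKM). Hair follicle markers summed to 23.7, 137 and 433 FPKM in CST skin, against 30.2, 37.0 and 15.5 FPKM in Yoda1 skin. The groups overlapped in that sum, and all 5 tested hair follicle markers had a positive log2 change (median 2.08). The part of fibroblasts, neutrophils, fat, muscle and hair follicles in the collagen values was not tested.

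**Figure D1:**
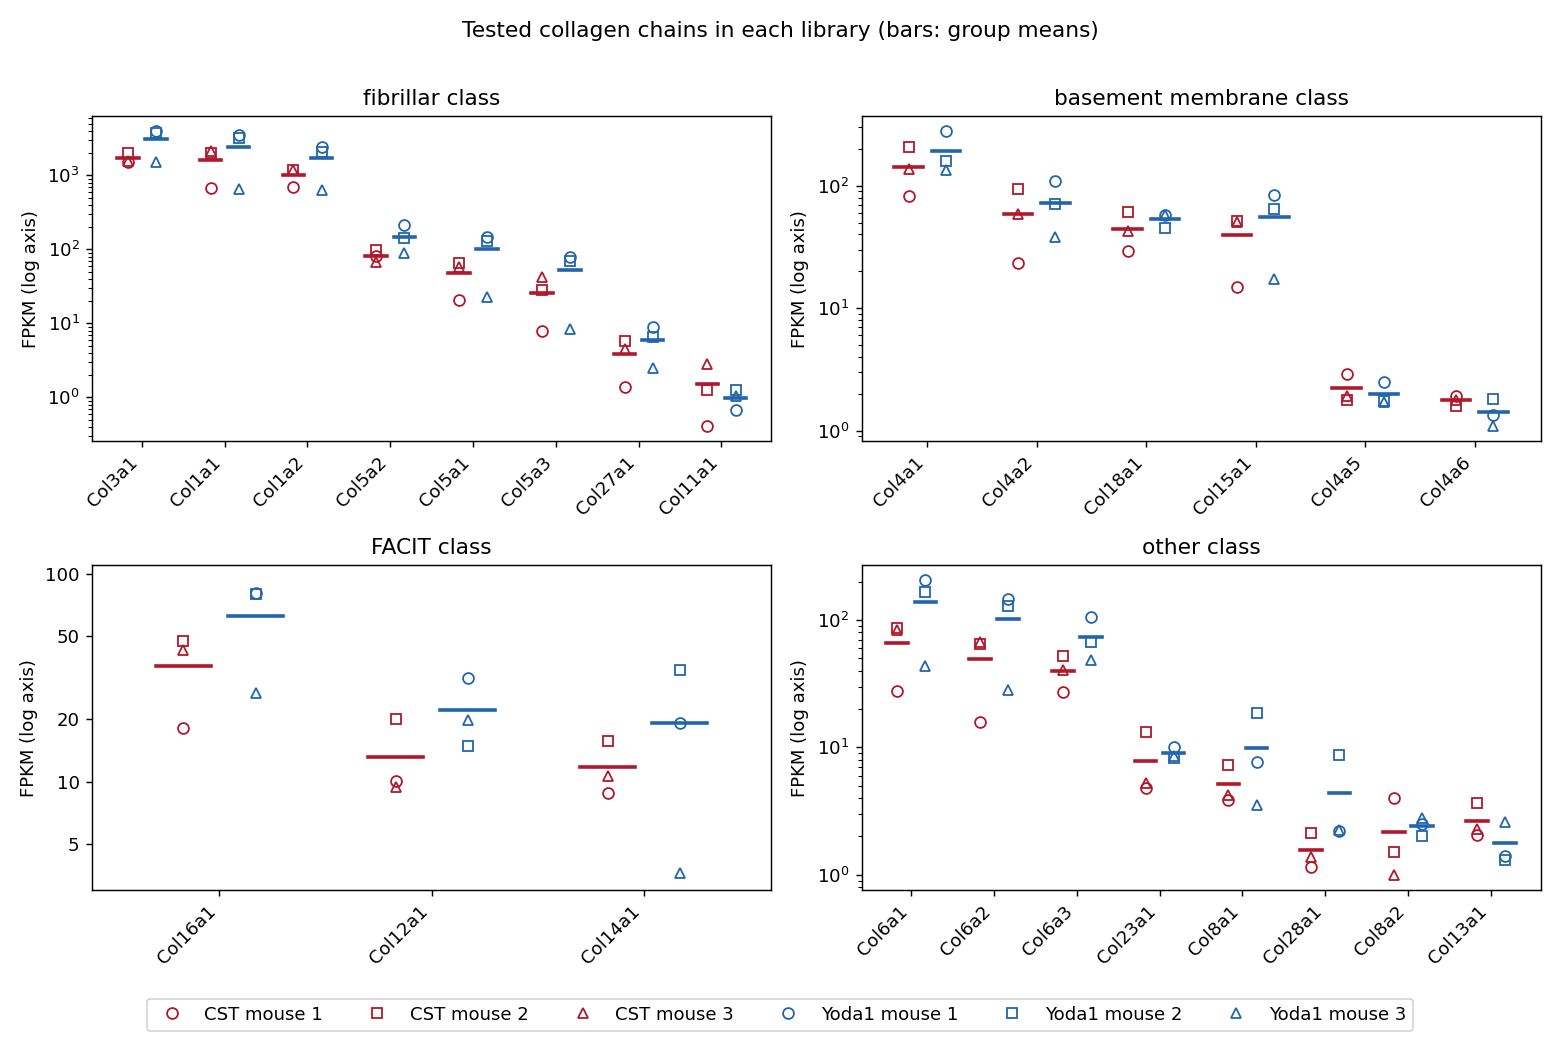
FPKM (log axis) of the 25 tested collagen chains in each library, CST in red left of Yoda1 in blue, with group means as bars and mouse numbers as symbols, in 4 panels by class. CST mouse 1 and Yoda1 mouse 3 lie low for most fibrillar and type VI chains, as in Col1a1 with 671 and 659 FPKM, and the groups overlap in 24 of the 25 chains.

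Without CST mouse 1 and Yoda1 mouse 3, a comparison added after the data were seen, both remaining CST values lay below both remaining Yoda1 values in 16 of the 25 chains, where 20.9% of all tested genes did so. The opposite order was found in 2 chains, Col11a1 and Col13a1, against 24.3% of all tested genes. The median log2 change without them was -0.69 over the 25 chains and 0.01 over all tested genes. Limma still called 0 genes, chains included. At an unadjusted limma p under 0.05 there were 1818 of the 14588 tested genes and 13 of the 25 chains. Among the 13, Col13a1 was higher in CST (log2 change 0.73) and the rest were lower. The libraries left out had the lowest collagen sums and the Yoda1 mice kept had the highest, so the choice itself favours this order. The chains were measured in the same mice, so their counts are not separate observations.

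**Figure D2:**
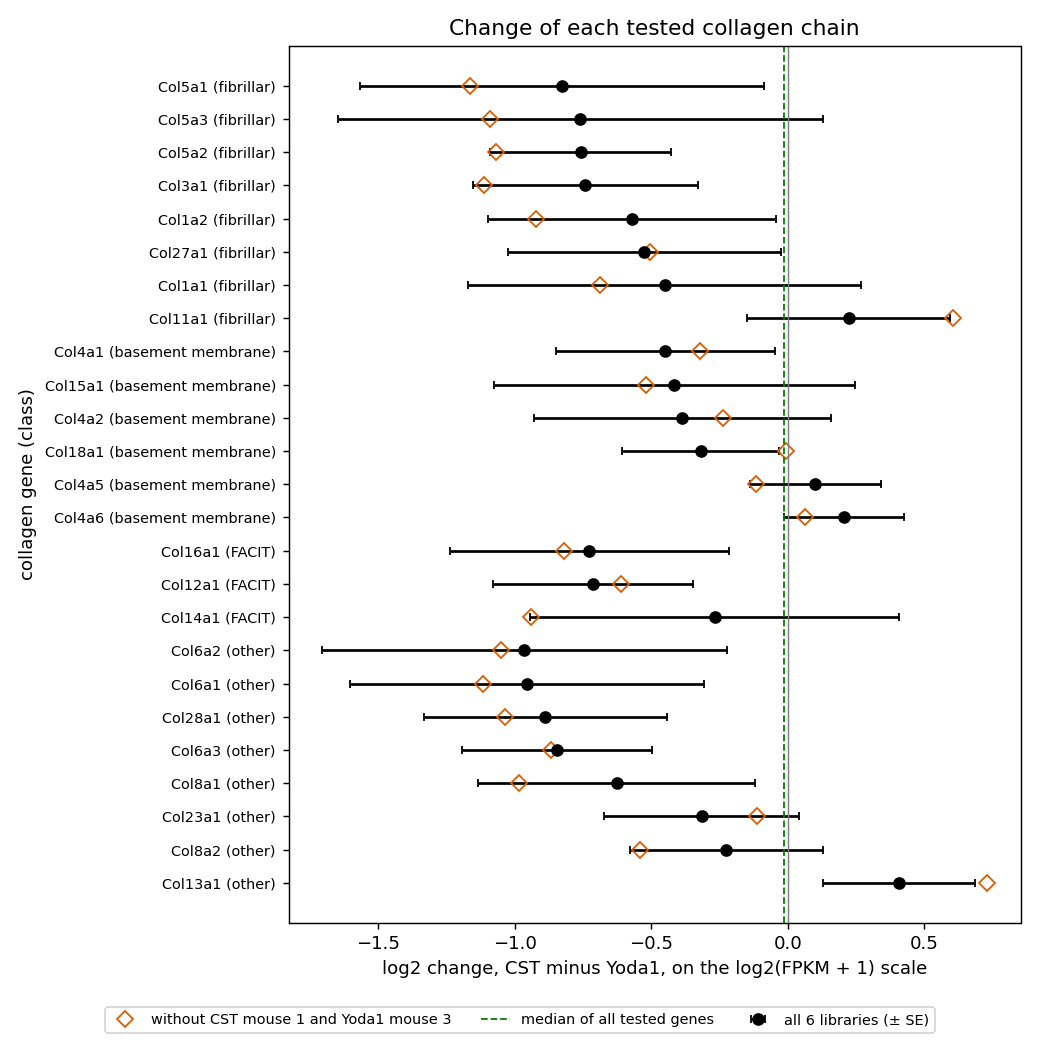
Log2 change (CST minus Yoda1, from log2(FPKM + 1)) of each tested chain, grouped by class, with filled points and ± SE for all 6 libraries and open diamonds without CST mouse 1 and Yoda1 mouse 3. With all 6 libraries 21 of the 25 points lie below 0, and the type VI chains Col6a1 (-0.95) and Col6a2 (-0.96) lie lowest among them.

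The fibrillar class had 11 members, of which 8 were tested, and 7 of the 8 had a negative log2 change (median -0.66). Type I collagen, the main fibre of the dermis, is built from Col1a1 and Col1a2. Col1a1 (ENSMUSG00000001506, chromosome 11, 94936224 to 94953042 on GRCm38) measured 671, 2032 and 2121 FPKM in CST mice 1 to 3, against 3528, 3172 and 659 FPKM in Yoda1 mice 1 to 3. CST mouse 1 and Yoda1 mouse 3 were alike and low, and the groups overlapped. The log2 change of Col1a1 was -0.45 (SE 0.72, limma adjusted p = 1.00). Without CST mouse 1 it turned to 0.09 and without Yoda1 mouse 3 it was -1.23. Its partner Col1a2 (chromosome 6, 4504814 to 4541544) measured 693, 1199.9 and 1181 FPKM in CST skin and 2435, 2093 and 630 FPKM in Yoda1 skin. The log2 change of Col1a2 was -0.57 (SE 0.53, limma adjusted p = 1.00).

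Col3a1, the single chain of type III collagen (ENSMUSG00000026043, chromosome 1, 45311538 to 45349706), measured 1500.0, 2012 and 1577 FPKM in CST mice 1 to 3, against 3997, 3708 and 1499 FPKM in Yoda1 mice 1 to 3. All CST values were lower than those of Yoda1 mice 1 and 2, and Yoda1 mouse 3 lay just under the lowest CST value. Its log2 change was -0.74 (SE 0.41, limma adjusted p = 1.00), a mean of 1696 ± 276 FPKM in CST skin and 3068 ± 1367 FPKM in Yoda1 skin (SD, n = 3 each). Upstream windows of Col1a2 and Col3a1 are shown because both rank among the highest fibrillar chains while their windows differ in base composition. Each window runs from 250 bases before the RefSeq start to 50 bases after it (GRCm38.p6), 5′ to 3′ on the gene's strand, with 3 short motifs on either strand in capitals. These are the TATA box, read as TATAAA, the CCAAT box, read as its name, and the GC box, read as GGGCGG. A motif on the opposite strand stands as its reverse complement.
Col1a2 (chr6:4505368-4505667, plus strand): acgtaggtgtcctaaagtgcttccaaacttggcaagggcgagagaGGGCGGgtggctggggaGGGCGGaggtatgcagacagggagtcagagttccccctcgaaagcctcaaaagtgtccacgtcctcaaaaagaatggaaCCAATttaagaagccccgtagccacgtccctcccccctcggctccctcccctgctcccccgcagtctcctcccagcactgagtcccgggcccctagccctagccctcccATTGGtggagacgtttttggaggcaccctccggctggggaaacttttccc
Col3a1 (chr1:45311288-45311587, plus strand): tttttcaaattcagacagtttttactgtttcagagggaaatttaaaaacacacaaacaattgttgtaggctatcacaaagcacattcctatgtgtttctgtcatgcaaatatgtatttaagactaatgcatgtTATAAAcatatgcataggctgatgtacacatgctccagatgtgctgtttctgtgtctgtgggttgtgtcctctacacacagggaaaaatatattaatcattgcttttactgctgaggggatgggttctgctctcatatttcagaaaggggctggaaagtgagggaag
The Col1a2 window had 61.0% G and C and held CCAAT and GGGCGG matches, while the Col3a1 window had 37.7% G and C and held a TATAAA match. No match overlapped another. Of the 42 chains 33 had a window in the table, 36 windows in all. TATAAA was found in 4 of these 36, CCAAT in 11 and GGGCGG in 22, while they were found in 13.6%, 37.4% and 35.7% of the 32851 windows of all genes. These matches describe letters only.

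Type V collagen, which starts fibrils and limits their width, is built from Col5a1, Col5a2 and Col5a3. Col5a2 (chromosome 1, 45374321 to 45503282), which lies 24.6 kb from Col3a1 on the opposite strand, measured 80.6, 99.4 and 68.2 FPKM in CST skin and 212, 143 and 88.7 FPKM in Yoda1 skin. In Col5a2 only Yoda1 mouse 3 reached into the CST range, and the log2 change was -0.76 (SE 0.33, unadjusted p = 0.0525, limma adjusted p = 1.00). Col5a1 measured 20.5, 66.4 and 57.8 FPKM in CST skin and 149, 132 and 22.9 FPKM in Yoda1 skin, with a log2 change of -0.83 (SE 0.74). Col5a3 measured 7.84, 28.2 and 42.0 FPKM in CST skin and 79.8, 69.5 and 8.47 FPKM in Yoda1 skin. It had the widest spread of the 25 tested chains, with a highest library 10.2 times the lowest, and a log2 change of -0.76 (SE 0.89). Single libraries set the size of both changes. Without CST mouse 1 the change was -0.31 in Col5a1 and -0.09 in Col5a3, and without Yoda1 mouse 3 it was -1.68 in Col5a1 and -1.76 in Col5a3.

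The remaining fibrillar chains are known mainly from cartilage, or for Col24a1 from developing bone and cornea, and were low. Col27a1 had a log2 change of -0.52 (SE 0.50) with means of 3.86 ± 2.24 FPKM in CST skin and 5.97 ± 3.23 FPKM in Yoda1 skin. Col11a1 measured 0.406, 1.26 and 2.87 FPKM in CST skin and 0.674, 1.26 and 1.05 FPKM in Yoda1 skin, for a log2 change of 0.22 (SE 0.37) that turned to -0.15 without CST mouse 3. Col24a1, Col11a2 and Col2a1 averaged 0.927, 0.673 and 0.230 FPKM over the 6 libraries and lay below the filter. Of the 8 chondrocyte markers 7 averaged under 1 FPKM, with a highest mean of 0.285 FPKM among those 7. The fibrillar median was -0.20 with CST mouse 1 left out, -0.21 with Yoda1 mouse 1 left out, -0.36 with Yoda1 mouse 2 left out and -1.19 with Yoda1 mouse 3 left out. It was -0.996 with both CST mouse 1 and Yoda1 mouse 3 left out.

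The basement membrane class held 8 members, the type IV chains with Col15a1 and Col18a1, and 6 were tested. Of these 4 had a negative log2 change and the median was -0.35. Col4a1 and Col4a2 form the type IV trimer found in nearly all basement membranes. They lie head to head on chromosome 8, Col4a1 at 11198423 to 11312826 on the minus strand and Col4a2 at 11312805 to 11449287 on the plus strand, so that their annotated 5′ ends overlap by 22 bases. Both upstream windows are shown because the genes start within the same stretch, in the format used above.
Col4a1 (chr8:11312777-11313076, minus strand): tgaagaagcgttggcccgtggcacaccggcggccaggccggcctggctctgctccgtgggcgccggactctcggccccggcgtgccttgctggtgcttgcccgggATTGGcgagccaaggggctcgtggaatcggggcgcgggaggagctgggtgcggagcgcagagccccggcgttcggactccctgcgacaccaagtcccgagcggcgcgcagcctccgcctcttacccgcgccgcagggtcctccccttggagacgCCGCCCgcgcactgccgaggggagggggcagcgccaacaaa
Col4a2 (chr8:11312555-11312854, plus strand): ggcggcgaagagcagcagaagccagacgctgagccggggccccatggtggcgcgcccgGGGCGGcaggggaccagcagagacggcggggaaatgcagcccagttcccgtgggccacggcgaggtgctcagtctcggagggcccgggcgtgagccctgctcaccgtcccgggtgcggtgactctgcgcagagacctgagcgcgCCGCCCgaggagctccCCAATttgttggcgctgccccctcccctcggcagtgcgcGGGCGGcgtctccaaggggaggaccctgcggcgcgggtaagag
The windows share 78 bases, read from opposite strands, and have 74.0% and 73.7% G and C. The GGGCGG match of Col4a2 that begins at position 8 from its start is the same 6 bases (11312812 to 11312817) as the reverse-strand match of Col4a1 that begins at position 10.

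Col4a1 measured 82.0, 206 and 138 FPKM in CST mice 1 to 3, against 280.3, 159 and 134 FPKM in Yoda1 mice 1 to 3. Col4a2 measured 23.4, 93.6 and 59.3 FPKM in CST skin and 109, 71.1 and 38.3 FPKM in Yoda1 skin. Both genes were lowest in CST mouse 1 and highest in Yoda1 mouse 1, with CST mouse 2 above Yoda1 mouse 2, so the groups overlapped. The log2 changes were -0.45 (SE 0.40) for Col4a1 and -0.39 (SE 0.54) for Col4a2, both with a limma adjusted p of 1.00. Without CST mouse 1 the change of Col4a2 turned to 0.16.

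Col18a1, whose end fragment is known as endostatin, measured 29.4, 61.4 and 42.3 FPKM in CST skin and 57.7, 45.5 and 57.4 FPKM in Yoda1 skin. Unlike Col1a1, Col18a1 was not low in Yoda1 mouse 3, and its log2 change was -0.32 (SE 0.29). Col15a1, found at the basement membranes of vessels and muscle, measured 15.0, 51.8 and 50.9 FPKM in CST skin and 84.8, 64.7 and 17.5 FPKM in Yoda1 skin. Its log2 change of -0.42 (SE 0.66) turned to 0.15 without CST mouse 1 and to 0.02 without Yoda1 mouse 1. Summed endothelial markers were 86.6, 183 and 100.5 FPKM in CST skin and 187, 148 and 90.5 FPKM in Yoda1 skin, lowest in the same pair of libraries that were lowest for Col15a1, and their part in the result was not tested.

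Col4a5 and Col4a6, which form the type IV network of the epidermal basement membrane together with the common chains, lie 1.3 kb apart in opposite directions on chromosome X. They varied least among the tested chains, with a highest library 1.72 and 1.78 times the lowest. Col4a5 averaged 2.22 ± 0.618 FPKM in CST skin and 1.99 ± 0.447 FPKM in Yoda1 skin, and Col4a6 averaged 1.76 ± 0.177 and 1.41 ± 0.374 FPKM in CST and Yoda1 skin (SD, n = 3 each). Their log2 changes were 0.10 (SE 0.24) and 0.21 (SE 0.22). Without CST mouse 1 that of Col4a5 turned to -0.05. Col4a3 and Col4a4, known from kidney and other specialised membranes, averaged 0.143 and 0.399 FPKM and were not tested. The basement membrane median was 0.05 with CST mouse 1 left out, -0.01 with Yoda1 mouse 1 left out, -0.64 with CST mouse 2 left out and -0.18 with both CST mouse 1 and Yoda1 mouse 3 left out.

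The FACIT class had 9 members, and the 3 that were tested all had a negative log2 change (median -0.71). Col16a1 measured 18.0, 47.3 and 43.0 FPKM in CST skin and 80.8, 79.6 and 26.8 FPKM in Yoda1 skin. Its log2 change was -0.73 (SE 0.51), and Yoda1 mouse 3 lay within the CST range. Col12a1, a fibril-associated chain of tendon and dermis, measured 10.04, 20.1 and 9.46 FPKM in CST skin and 31.4, 14.8 and 19.9 FPKM in Yoda1 skin, for a log2 change of -0.71 (SE 0.37, unadjusted p = 0.0875). For Col12a1 the overlap came from CST mouse 2, above Yoda1 mice 2 and 3. Col14a1 measured 8.78, 15.7 and 10.6 FPKM in CST skin and 19.2, 34.4 and 3.63 FPKM in Yoda1 skin. Its log2 change of -0.27 (SE 0.67) turned to 0.36 without Yoda1 mouse 2.

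The other 6 FACIT chains lay below the filter. Col9a3 measured 1.13, 0.757 and 0.656 FPKM in CST skin and 0.879, 0.694 and 0.587 FPKM in Yoda1 skin, and its cartilage partners Col9a1 and Col9a2 averaged 0.0171 and 0.0495 FPKM. Col20a1 averaged 0.510 and Col19a1 0.0557 FPKM over the 6 libraries. Col22a1, a chain of tissue junctions such as that of muscle and tendon, held 8, 11 and 12 reads in CST mice 1 to 3, against 2, 8 and 0 reads in Yoda1 mice 1 to 3. Its FPKM values did not overlap between the groups (0.0754, 0.0903 and 0.0939 in CST skin, 0.0154, 0.0621 and 0 in Yoda1 skin), but at this depth a difference of a few reads decides that order. Summed skeletal muscle markers were 12392, 6654 and 11297 FPKM in CST skin and 108, 4777 and 569 FPKM in Yoda1 skin, in the same order of groups, and their part in Col22a1 was not tested. The FACIT median was -0.30 without CST mouse 1, -0.47 without Yoda1 mouse 2, -1.11 with Yoda1 mouse 3 left out and -0.82 with both it and CST mouse 1 left out.

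The remaining 14 chains are the beaded filament, short-chain, transmembrane and other collagens, of which 8 were tested, 7 with a negative log2 change (median -0.74). Type VI collagen, whose beaded filaments link cells to the fibres around them, is built from Col6a1, Col6a2 and Col6a3 in most tissues. Col6a3 (ENSMUSG00000048126, chromosome 1, 90765923 to 90843971) measured 27.2, 52.4 and 40.2 FPKM in CST mice 1 to 3, against 106, 67.5 and 48.3 FPKM in Yoda1 mice 1 to 3. Only Yoda1 mouse 3 lay under the highest CST value. Its log2 change was -0.85 (SE 0.35, unadjusted p = 0.0416, limma adjusted p = 1.00), and it stayed between -1.11 and -0.55 under every alternative run.

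Col6a1 measured 27.7, 86.1 and 83.4 FPKM in CST skin and 206, 166 and 43.4 FPKM in Yoda1 skin, for a log2 change of -0.95 (SE 0.65). Col6a2, its neighbour 85.2 kb away on chromosome 10, measured 15.8, 65.1 and 66.9 FPKM in CST skin and 146, 130 and 28.1 FPKM in Yoda1 skin, for a log2 change of -0.96 (SE 0.74). In both, CST mouse 1 was lowest and Yoda1 mouse 3 next. Without CST mouse 1 the change was -0.43 in Col6a1 and -0.30 in Col6a2, and without Yoda1 mouse 3 it was -1.64 in Col6a1 and -1.71 in Col6a2. The other type VI chains, Col6a4, Col6a5 and Col6a6, lie in a row on chromosome 9 and averaged 0.266, 0.390 and 0.743 FPKM, below the filter. As close copies of each other they may share reads, and the counting of such reads was likewise not given in the sources used here.

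Col28a1, a chain known from the basement membranes around peripheral nerve, was the only tested chain whose groups did not overlap, 1 of 25 lower in CST, against 2.08% of all tested genes. No tested chain was higher in CST without overlap, as 4.52% of all tested genes were. Col28a1 measured 1.15, 2.13 and 1.38 FPKM in CST skin and 2.20, 8.77 and 2.25 FPKM in Yoda1 skin, so the gap between the groups was narrow and Yoda1 mouse 2 was high. The log2 change was -0.89 (SE 0.44, unadjusted p = 0.0816, limma adjusted p = 1.00) and -0.36 without Yoda1 mouse 2. The 7 Schwann cell markers summed to 88.1, 77.9 and 46.4 FPKM in CST skin and 47.7, 189 and 33.3 FPKM in Yoda1 skin, also highest in Yoda1 mouse 2, and their part in Col28a1 was not tested. Col8a1, a short-chain collagen of vessel walls, was high in the same library, with 3.86, 7.30 and 4.27 FPKM in CST skin and 7.73, 18.6 and 3.56 FPKM in Yoda1 skin. Its log2 change was -0.63 (SE 0.51) and -0.08 without Yoda1 mouse 2.

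Among the transmembrane chains, Col23a1 measured 4.80, 13.2 and 5.23 FPKM in CST skin and 10.1, 8.29 and 8.58 FPKM in Yoda1 skin, for a log2 change of -0.32 (SE 0.36). CST mouse 2 was the highest library and the other CST values lay below all Yoda1 values. Col13a1, a transmembrane collagen of neuromuscular junctions, measured 2.07, 3.63 and 2.29 FPKM in CST skin and 1.42, 1.30 and 2.61 FPKM in Yoda1 skin. It was the only tested chain of this class with a positive log2 change (0.41, SE 0.28, limma adjusted p = 1.00), and it stayed positive under every alternative run (0.23 to 0.77). The part of the skeletal muscle markers, which were higher in CST skin too (12392, 6654 and 11297 FPKM in CST skin, against 108, 4777 and 569 FPKM in Yoda1 skin), in Col13a1 was not tested. Col8a2 averaged 2.17 ± 1.61 FPKM in CST skin and 2.43 ± 0.374 FPKM in Yoda1 skin. Its log2 change of -0.23 (SE 0.35) turned to 0.05 without CST mouse 3. Col26a1, Col25a1 and the growth-plate chain Col10a1 averaged 0.921, 0.0631 and 0.0129 FPKM and were not tested. Leaving out Yoda1 mouse 2 gave the class a median of -0.36, leaving out CST mouse 1 gave -0.45, leaving out Yoda1 mouse 3 gave -1.12 and leaving out both CST mouse 1 and Yoda1 mouse 3 gave -0.93.

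The ratio of type III to type I chains is often followed in wound repair, and it differed more between libraries than between treatments. Col3a1 to Col1a1 stood at 2.23, 0.990 and 0.744 in CST mice 1 to 3, against 1.13, 1.17 and 2.27 in Yoda1 mice 1 to 3. The high values belonged to CST mouse 1 and Yoda1 mouse 3. The mean log2 ratio was 0.24 ± 0.824 in CST skin and 0.53 ± 0.568 in Yoda1 skin (SD, n = 3 each), a difference of -0.29 (exact permutation test, two-sided, p = 0.5, where the smallest p that 3 against 3 allows is 0.1). The difference turned to 0.04 without CST mouse 3 and to 0.04 without Yoda1 mouse 3.

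The other chain ratios, given without a test, set the same pair of libraries apart. Col5a2 to Col5a1 was 3.93, 1.498 and 1.18 in CST skin and 1.42, 1.08 and 3.87 in Yoda1 skin. Col4a1 to Col4a2 was 3.50, 2.20 and 2.33 in CST skin and 2.58, 2.24 and 3.49 in Yoda1 skin. Col6a3 to Col6a1 was 0.982, 0.609 and 0.482 in CST skin and 0.512, 0.408 and 1.11 in Yoda1 skin. In each of these CST mouse 1 and Yoda1 mouse 3 were the highest libraries of their groups. Col1a1 to Col1a2, which form 1 trimer, was 0.969, 1.69 and 1.80 in CST skin and 1.45, 1.52 and 1.05 in Yoda1 skin, with the same pair lowest. Col6a1 to Col6a2 moved less, between 1.25 and 1.76 in CST skin and between 1.28 and 1.54 in Yoda1 skin. Its highest values were again those of CST mouse 1 and Yoda1 mouse 3. The gene lengths behind the deposited FPKM set the level of each ratio, but not its order among libraries. On the longest coding transcript, Col6a1 (mean 62.6 FPKM) lay below Col6a2 (72.8 FPKM).

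**Figure D3:**
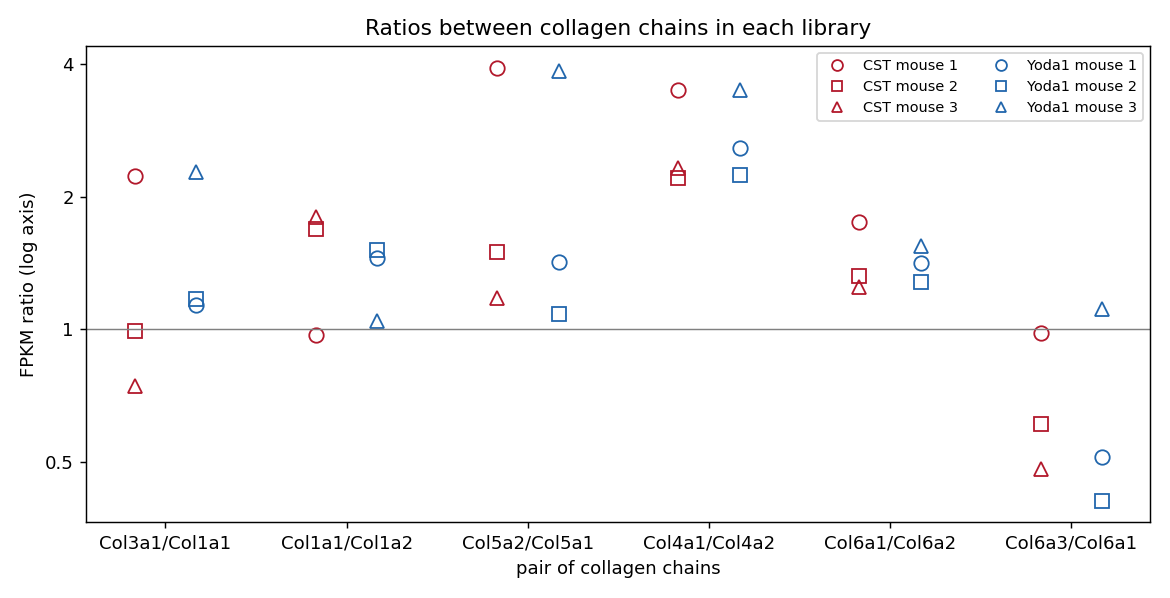
FPKM ratio (log axis) of 6 pairs of collagen chains in each library, CST in red left of Yoda1 in blue, with symbols by mouse number. CST mouse 1 and Yoda1 mouse 3 lie together and apart from the rest, as in Col3a1/Col1a1 at 2.23 and 2.27, while the other libraries of the treatments mix.

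In these pairs, except Col6a1 and Col6a2, the chain that was relatively lower in CST mouse 1 and Yoda1 mouse 3 had the transcript richer in G and C. The longest coding transcript had 58.9% G and C in Col1a1, 55.7% in Col1a2 and 52.5% in Col3a1, 58.0% in Col5a1 and 49.6% in Col5a2, 60.6% in Col4a2 and 57.7% in Col4a1, and 56.7% in Col6a1, 56.2% in Col6a2 and 54.5% in Col6a3. The 25 tested chains had a median of 56.2%, against 50.2% over the 14395 tested genes with a transcript in GENCODE M21. Across all those genes, the Spearman correlation of G and C content with a library's deviation from the gene's mean was -0.48 in CST mouse 1, 0.39 in CST mouse 2, 0.40 in CST mouse 3, -0.03 in Yoda1 mouse 1, 0.29 in Yoda1 mouse 2 and -0.30 in Yoda1 mouse 3. Across the 25 chains it was -0.48, 0.33 and 0.39 in CST mice 1 to 3, against 0.31, -0.08 and -0.20 in Yoda1 mice 1 to 3. These are correlations across genes, which share libraries and are not independent. Genes with at least 55.9% G and C had a median deviation of -0.33 in CST mouse 1 and -0.27 in Yoda1 mouse 3, while the 25 chains had -0.67 and -0.54. The part of base composition in the collagen values was not tested. Between the treatments, the correlation of G and C content with the log2 change was 0.01 across the 25 chains and 0.10 across all those genes.

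**Figure D4:**
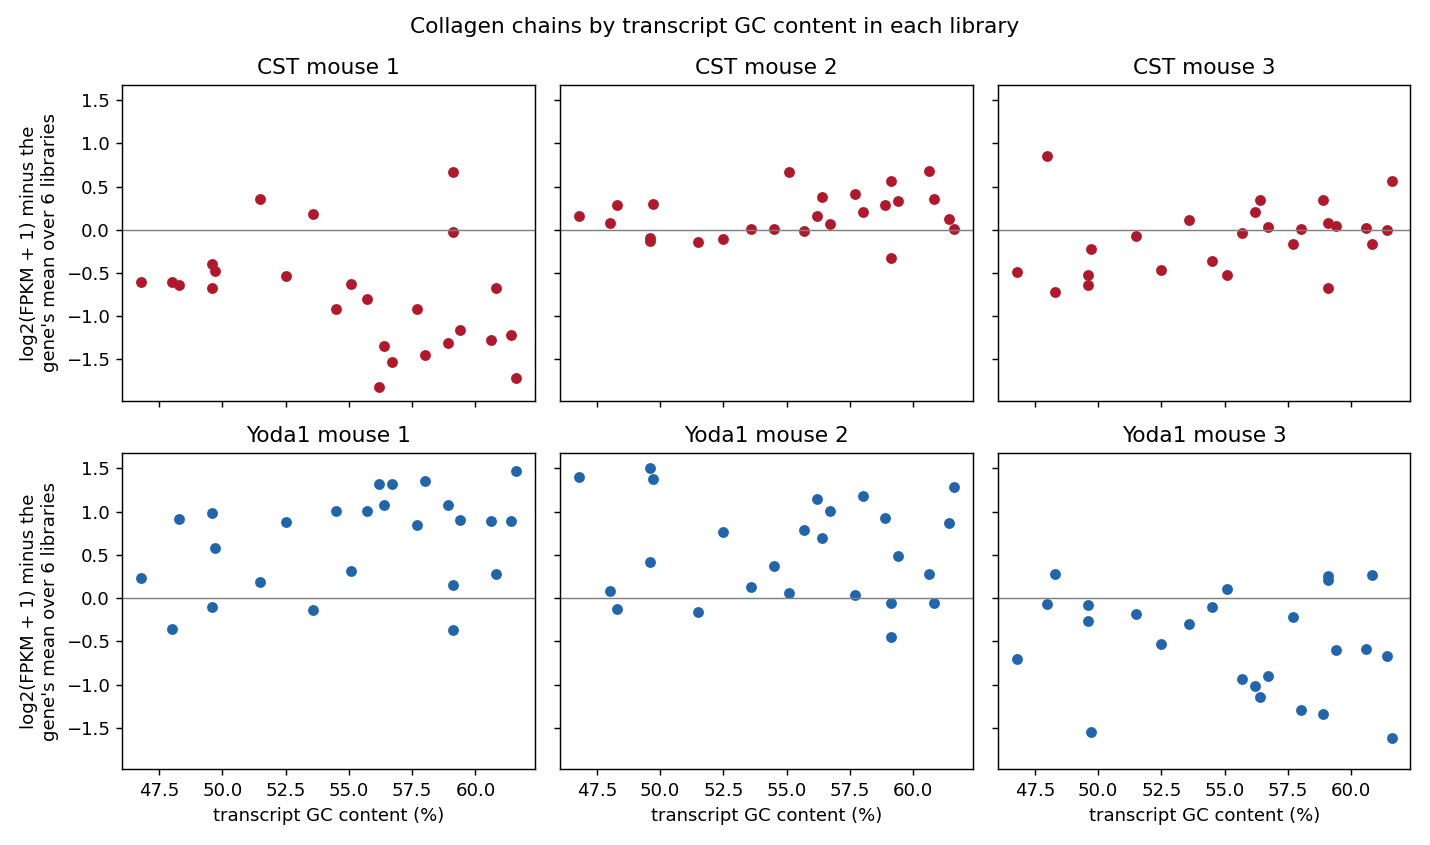
Deviation of log2(FPKM + 1) from the gene's mean over the 6 libraries, against the G and C content (%) of the longest coding transcript, for the 25 tested collagen chains, with 1 panel per library (CST above Yoda1). In CST mouse 1 and Yoda1 mouse 3 most chains lie below 0 (22 and 20 of 25), and Col5a3, the chain richest in G and C, lies low in both. Across the 25 chains the rank correlation is -0.48 in CST mouse 1 and weaker in Yoda1 mouse 3 (-0.20), where Col18a1, Col13a1 and Col8a2, all rich in G and C, lie above 0.

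The enzymes and chaperones that make collagen measured mostly lower in CST skin as well, and none passed the test. Of the 32 genes on that list 30 were tested, limma called 0 and 28 had a negative log2 change (median -0.44, against -0.01 over all tested genes). In 3 of the 30, all lower in CST, the groups did not overlap, where 2.08% of all tested genes did so. P4ha3, a subunit of the prolyl hydroxylase that stabilises the helix, measured 1.35, 3.71 and 1.74 FPKM in CST skin and 7.79, 7.62 and 4.06 FPKM in Yoda1 skin. Each CST value of P4ha3 lay below each Yoda1 value (log2 change -1.22, SE 0.35, limma adjusted p = 0.607). P3h4, a partner of the lysyl hydroxylase complex, averaged 22.6 ± 2.86 FPKM in CST skin and 28.9 ± 1.09 FPKM in Yoda1 skin (log2 change -0.34, SE 0.19). P4hb, the other subunit of prolyl hydroxylase, was named after its values were seen and averaged 539.9 ± 24.5 FPKM in CST skin and 616 ± 6.98 FPKM in Yoda1 skin (log2 change -0.19, SE 0.20). The chaperone gene Serpinh1 measured 199, 419 and 337 FPKM in CST skin and 504, 700.2 and 204 FPKM in Yoda1 skin (log2 change -0.45, SE 0.48), low in the same pair of libraries as Col1a1. Lox, the cross-linking oxidase, had a log2 change of -0.65 (SE 0.40), Fkbp14 one of -0.63 (SE 0.35), P4ha1 one of -0.16 (SE 0.25) and the lysyl hydroxylase gene Plod2 one of -0.17 (SE 0.45). The signs of P4ha1 and Plod2 turned without Yoda1 mouse 2 (0.04 and 0.14).

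Of 18 genes of collagen-binding matrix proteins 17 were tested, limma called 0 and 15 had a negative log2 change (median -0.45). Dcn, Lum and Dpt are on the fibroblast list too, so these lists are not separate observations. Lum, a proteoglycan that spaces fibrils, measured 135, 111 and 77.8 FPKM in CST skin and 234, 163 and 133 FPKM in Yoda1 skin, for a log2 change of -0.70 (SE 0.30, unadjusted p = 0.0459, limma adjusted p = 1.00). In Lum only Yoda1 mouse 3 reached into the CST range. Dcn, another fibril-binding proteoglycan, had a log2 change of -0.58 (SE 0.32), Thbs2 one of -0.73 (SE 0.38) and Sparc one of -0.47 (SE 0.41). Thbs1, a matricellular protein of early wounds, had a positive log2 change (0.87, SE 0.56), with 320, 164 and 70.2 FPKM in CST skin and 144, 54.4 and 76.2 FPKM in Yoda1 skin. The change of Thbs1 was 0.35 without CST mouse 1 and 0.07 with library weights.

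Of 10 collagen receptor genes 8 were tested, limma called 0 and 6 had a negative log2 change (median -0.25). Lair1, an inhibitory collagen receptor of white blood cells, measured 1.83, 3.66 and 1.61 FPKM in CST skin and 7.34, 8.32 and 4.69 FPKM in Yoda1 skin. The groups did not overlap in Lair1 (log2 change -1.23, SE 0.31, limma adjusted p = 0.569). It was 1 of the 8 tested receptors, where 2.08% of all tested genes were lower in CST without overlap. Summed macrophage markers were 1782, 1732 and 1261 FPKM in CST skin and 3843, 4438 and 1278 FPKM in Yoda1 skin, and their part in Lair1 was not tested. Mrc2, which takes up collagen into fibroblasts, had a log2 change of -0.65 (SE 0.44), Itga11 one of -0.37 (SE 0.31) and the receptor kinase gene Ddr2 one of -0.29 (SE 0.22).

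The order of levels among the chains depends on the length by which reads were divided. The length behind the deposited FPKM lay within 1% of the mean length of the gene's GENCODE M21 transcripts in 23 of the 25 tested chains and in 93.8% of the tested genes. Short transcripts pull that mean down, so the length used for Col1a1 was 1781 bases, where its longest coding transcript has 5930. Over the 25 chains the longest coding transcript was 1.03 to 3.33 times the length used. Mean FPKM over the 6 libraries was 2382 for Col3a1, 2031 for Col1a1 and 1372 for Col1a2, and on the longest transcript the same reads gave 774, 609.9 and 587, in the same order. On the deposited scale Col4a1 (166) stood above Col6a1 (102) and Col6a2 (75.2), while on the longest transcript Col6a2 (72.8) and Col6a1 (62.6) stood above Col4a1 (53.9). Within libraries, Col4a1 stood above Col6a1 in 5 of 6 and above Col6a2 in 6 of 6 on the deposited scale, and above each of them in 3 of 6 on the longest transcript. The length divides out of a gene's ratio between libraries, and it bears on the log2 changes only through the pseudocount.

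For comparison, the chains left out by the rule showed another order of libraries. Col17a1 measured 340.1, 292 and 199.97 FPKM in CST skin and 190.1, 187 and 381 FPKM in Yoda1 skin, highest in Yoda1 mouse 3 and CST mouse 1. Col7a1 measured 20.2, 31.8 and 28.3 FPKM in CST skin and 20.3, 19.8 and 26.2 FPKM in Yoda1 skin. Summed keratinocyte markers were 13840, 15672 and 19538 FPKM in CST skin and 10723, 11441 and 25162 FPKM in Yoda1 skin, and their part was not tested.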

How the data were processed

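The authors deposited 1 table of FPKM values for 57010 genes in 6 libraries, with gene symbols and no counts; per the submitters' processing notes the builds were GRCm38 and mm10. Aligner, counting tool and strandedness were all not given in the sources used here. Per the labels' protocols RNA came from skin by a Qiagen kit. Groups were taken from the sample titles, which name separate mice. All value columns matched a sample.

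Reads were recovered from the FPKM steps: with depths set by 312 short genes, all 30697 genes above 0 (100%) gave whole reads within 0.02 reads, and the 14588 tested genes within 0.000293. The length of each gene was searched for such whole reads, so genes above 0 in few libraries could hardly fail. The recovered reads made up 99.66% to 99.71% of the depths. These figures cover counting error only. In 26313 genes every library was at 0.

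The test was limma 3.58.1 in R 4.3.3 on log2(FPKM + 1), with trended prior variance and no covariate, over genes averaging 1 FPKM or more, and its fold changes understate those of low genes. It was tested on simulated data, whose scatter between libraries was set in advance and not taken from these libraries. That test therefore does not show how many real changes limma would miss here. Alternatives covered the pseudocount, filter, scaling, weights, voom on reads with plain library totals, a mouse-number block and leaving out libraries. Positions come from GENCODE M21 (GRCm38) by gene identifier, and promoter windows are RefSeq's. Genes whose exons overlap, as Col4a1 and Col4a2 do, may share reads.

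Every chain is accounted for. Values by library are given for the 4 highest chains of each class, chains without overlap between groups, the 5 with the smallest p, and further chains. Of the other lists, a fixed panel of 5 genes and up to 4 genes with the smallest p are named. The chains and lists were chosen with earlier results of these data known, so no pattern in them is independent support.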

Additional observations from a re-analysis of the deposited data

How the results depend on the processing

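Limma called 0 genes and 0 collagen chains (584 genes had an unadjusted p under 0.05). Under library weights, which ran from 0.193 in Yoda1 mouse 3 to 12.8 in Yoda1 mouse 1, it called 1348 genes and 9 of the 25 chains. The estimate of those weights stopped before convergence, and why the weighted fit differed was not tested. Leaving out 1 library gave 0 to 136 called genes (8 without CST mouse 2, 136 without Yoda1 mouse 2) and 0 called chains each time. Over those 6 fits the class medians ran from -1.19 to -0.20 (fibrillar), -0.64 to 0.05 (basement membrane), -1.11 to -0.30 (FACIT) and -1.12 to -0.36 (other). With no filter on low values the median of the other class was -0.18, over 14 chains in place of 8. Without a filter the FACIT median was -0.04 over 9 chains.

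Of the 25 tested chains 18 kept the sign of their log2 change under every alternative. The others, with P4ha1 and Plod2 of the processing list, are given with their range over the fits that left out libraries. That of Col11a1 turned to -0.15 without CST mouse 3 (range -0.15 to 0.61). That of Col14a1 turned to 0.36 without Yoda1 mouse 2 (range -1.11 to 0.36). That of Col15a1 turned to 0.15 without CST mouse 1 and 0.018 without Yoda1 mouse 1 (range -1.09 to 0.15). That of Col1a1 turned to 0.092 without CST mouse 1 (range -1.23 to 0.092). That of Col4a2 turned to 0.16 without CST mouse 1 (range -0.82 to 0.16). That of Col4a5 turned to -0.25 with library weights and -0.051 without CST mouse 1 and -0.12 without CST mouse 1 and Yoda1 mouse 3 (range -0.12 to 0.22). That of Col8a2 turned to 0.054 without CST mouse 3 (range -0.61 to 0.054). That of P4ha1 turned to 0.039 without Yoda1 mouse 2 (range -0.44 to 0.039). That of Plod2 turned to 0.075 without Yoda1 mouse 1 and 0.14 without Yoda1 mouse 2 (range -0.72 to 0.14). The Col3a1 to Col1a1 difference turned without CST mouse 3 (0.0431) and without Yoda1 mouse 3 (0.0370), and ran from -0.75 to 0.04 over the 6 fits; the cause was not tested.

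With the mouse number as a block limma called 0 genes and 0 chains, and the class medians were the same (-0.66, -0.35, -0.71 and -0.74). Same-numbered mice deviated together with correlations of -0.08, 0.21 and -0.20, so the numbers were not taken as pairs. Depth limits chains such as Col10a1 and Col9a1, with at most 3 and 4 reads per library.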
